A study of Saccharomyces cerevisiae with 12 samples.

Results

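Untreated H2B R95A yeast was compared with untreated H2B WT yeast across genes outside the mating pathway, using 6 of the 12 arrays of the series, 3 for each strain. Every probe set annotated with a single Saccharomyces cerevisiae gene entered the comparison, which gave 5498 of 10928 probe sets and 5449 genes. In H2B R95A an alanine replaces arginine 95 of histone H2B. In H2B WT the same histone is unchanged. Both strains belong to a histone mutant library built on a MATa haploid parent that lacks both chromosomal H2A-H2B gene pairs, replaced by the markers LEU2 and TRP1, and that also carries his3, leu2, ura3, trp1 and lys2 alleles. H2A and H2B therefore come only from a single-copy plasmid with a HIS marker. Each strain is a single library strain, and a probe for the substituted codon was not used here, so the arrays do not check the mutation itself. Total RNA of exponentially growing cultures was hybridised to Affymetrix Yeast Genome 2.0 arrays. The 6 arrays of cells kept for 30 min in rapamycin, which inhibits TOR kinases, at 200 ng/ml were used only for the spread between arrays and for values set beside the untreated ones.

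H2B forms with H2A, H3 and H4 the core of the nucleosome, the unit that packages yeast DNA and limits the access of transcription factors to promoters. A yeast cell reads its mating type from the MAT locus. Haploid cells express haploid-specific genes and keep the meiotic programme off, while in diploids a repressor made of the a1 and α2 proteins shuts the haploid-specific genes and opens the way to meiosis. Genes near chromosome ends are held down by Sir proteins and the deacetylases they bring. Genes for ribosomes and biosynthesis on one side and genes for stress and for carbon sources other than glucose on the other follow the growth rate and the sugar in the medium.

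Values are log2 signals, so a difference of 1 is a 2-fold change, and every difference is H2B R95A minus H2B WT. The test was limma on all 12 arrays, and a call needed a p below 0.05 after Benjamini-Hochberg adjustment across the 5498 probe sets. Neither the labels nor the methods say that replicates came from separate cultures, so the p-values measure only the spread between these arrays. The number of arrays limits the precision, and with 3 arrays a strain the smallest exact permutation p is 0.1.

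The untreated arrays had median signals between 7.25 and 7.30. H2B R95A replicate 1 stood apart and took 56.8% of the squared spread within its strain. H2B WT replicate 1 took 38.4% of that within H2B WT, which is near an even share among 3 arrays. H2B WT replicate 3 had the lowest signal of the 18S ribosomal RNA controls, at 7.14. The poly-A spike-in mean ranged from 4.36 to 5.93, and the difference between the 3′ and 5′ probe sets of ACT1 from 0.48 to 0.76. The part of these array differences in the results below was not tested beyond the values given without those arrays. Centring each array on its spike-in probe sets adds -0.18 to every change, so counts of positive members below hold only for the deposited scaling.

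Past the test, untreated H2B R95A had 2 higher probe sets (0.0364% of those tested) and 20 lower ones (0.364%). Of these 22, 14 belong to the mating lists, all of them lower, with changes from -5.56 to -2.10. The 8 others were COS12 and IME4, which were higher, and NEJ1, YCL021W-A, ICS2, RME1, YAR009C and THI22, which were lower. ICS2, a gene of no known function, is counted here outside the mating pathway although the list of pheromone-induced genes holds it. At the methods' threshold of 2-fold and an unadjusted p of at most 0.01, limma gave 9 higher probe sets (0.164%) and 44 lower (0.8%). Cyber-T, the test that the methods name, gave 23 higher and 49 lower at that threshold. At an unadjusted limma p under 0.05, 97 were higher (1.76%) and 174 lower (3.16%). Over all tested probe sets the median change was -0.04 and 45.2% were positive. The count outside the mating lists was 4 without H2B WT replicate 2 and 44 without H2B R95A replicate 1. In all, 59 probe sets passed without H2B R95A replicate 1, against 22 with all arrays. Passes of single genes without that array, given below, are to be read beside that larger count.

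**Figure D1:**
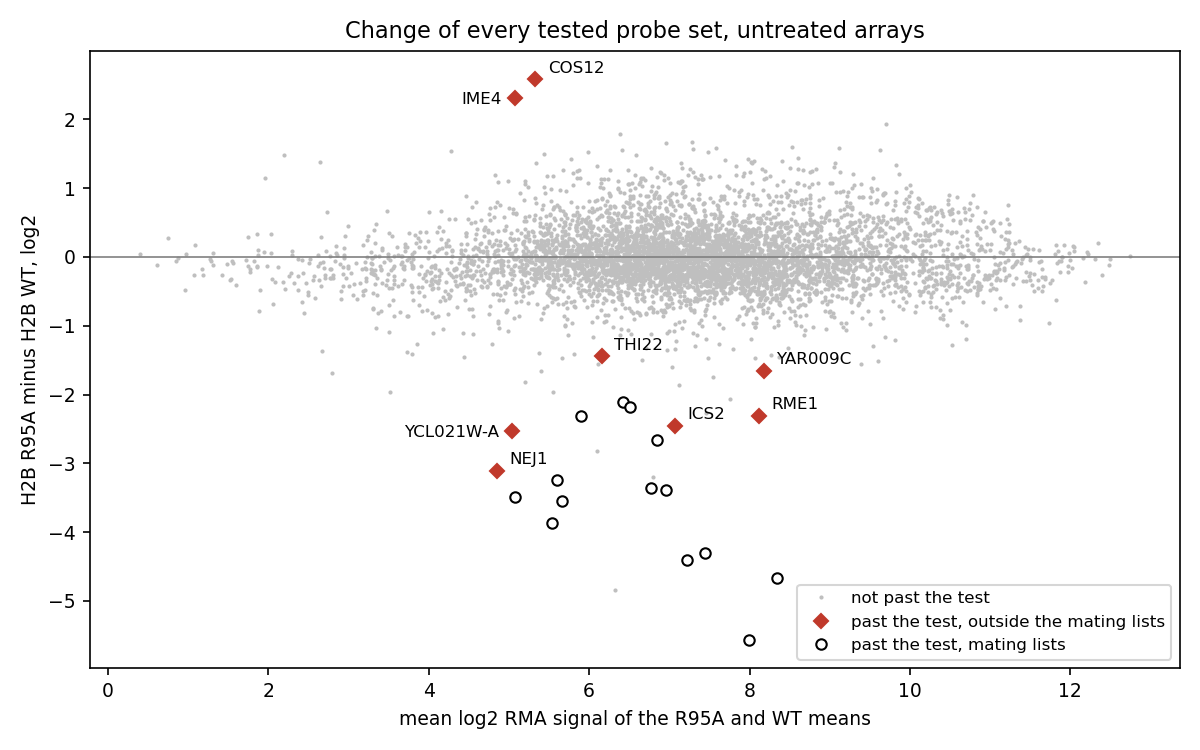
Change of every tested probe set (H2B R95A minus H2B WT, log2) against the average of the group means of the log2 RMA signal, untreated arrays. Diamonds are the 8 probe sets past the test outside the mating lists and open circles the 14 in them. COS12 and IME4 stand alone above the rest, and the lower calls outside the mating lists lie between -3.11 and -1.45.

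IME4 and RME1, which regulate entry into meiosis, and NEJ1, a haploid-specific repair gene, passed the test. IME4 encodes the mRNA methyltransferase that yeast needs for entry into meiosis, and in haploid cells an antisense transcript is known to keep it low. Its signals were 6.68, 6.13 and 5.88 in H2B R95A replicates 1, 2 and 3, and 4.03, 3.47 and 4.25 in H2B WT. Every H2B R95A array lay above every H2B WT array. IME4 rose by 2.32 (standard error 0.33, 4.98-fold, adjusted p = 0.00892 from limma). Its call ended when only the 6 untreated arrays were fitted (adjusted p = 0.0562), after spike-in centring (adjusted p = 0.0502), without H2B WT replicate 2 (2.09, adjusted p = 0.0511) and without replicate 1 of both strains (adjusted p = 0.0640).

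RME1 is the haploid repressor of IME1 and so of meiosis. It had 7.47, 6.42 and 7.01 in H2B R95A and 9.13, 9.10 and 9.59 in H2B WT. The lowest H2B WT array was well above the highest H2B R95A array. RME1 fell by 2.31 (standard error 0.32, 4.94-fold lower, adjusted p = 0.00763 from limma). The call ended when only the 6 untreated arrays were fitted (adjusted p = 0.0576).

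NEJ1 encodes the haploid-specific cofactor of DNA ligase IV in non-homologous end joining. Its 4.32, 2.66 and 2.92 in H2B R95A stood against 6.36, 6.47 and 6.39 in H2B WT. The H2B WT arrays were nearly level, and the H2B R95A arrays were spread but all far lower. NEJ1 had the largest fall outside the mating lists, by 3.11 (standard error 0.36, 8.62-fold lower, adjusted p = 0.00201 from limma). The call ended when only the 6 untreated arrays were fitted (adjusted p = 0.0562).

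The other 2 members of the list of haploid-specific genes with roles outside mating did not pass the test. RDH54, a DNA translocase of the Rad54 family, had 6.78, 5.99 and 6.43 in H2B R95A and 8.04, 7.80 and 7.38 in H2B WT (-1.34, standard error 0.31, adjusted p = 0.178). HO, the endonuclease gene of mating-type switching, had 3.38, 3.10 and 3.44 in H2B R95A and 3.86, 4.54 and 4.08 in H2B WT (-0.86, standard error 0.21, adjusted p = 0.228). For both genes the groups did not overlap. Over all tested probe sets 4.22% had 3 H2B R95A arrays below 3 H2B WT arrays and 2.69% had them above. All 4 members of this list were lower without overlap, 2 passed the test, and the median change was -1.82. Genes of the MAT locus were not analysed here.

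**Figure D2:**
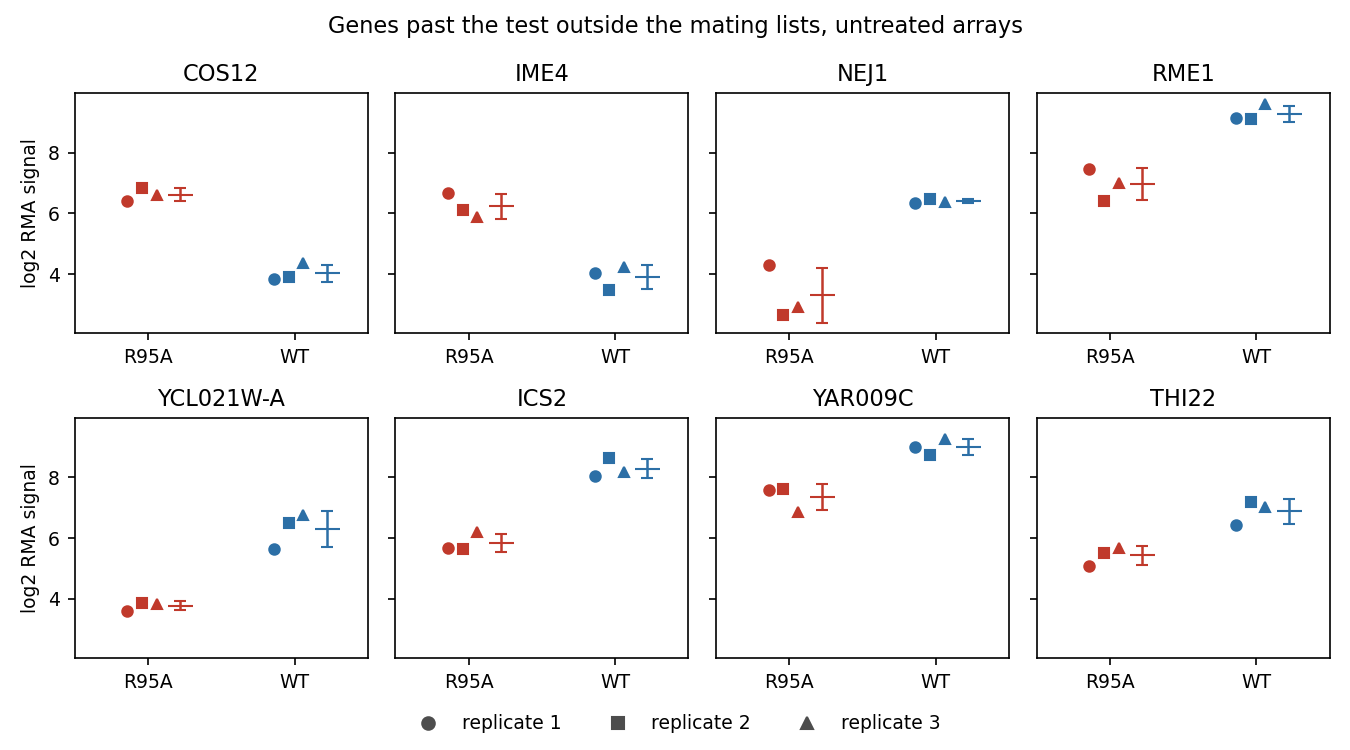
Log2 RMA signal of the 8 genes past the test outside the mating lists in each untreated array. Red is H2B R95A and blue H2B WT, symbols mark the replicate number, and the dash with bars is the mean with its SD (n = 3 arrays). In every panel the groups are separate, and replicate 1 of H2B R95A is the array nearest to H2B WT for NEJ1 and RME1.

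Downstream of RME1 and IME4 the meiotic regulators did not pass the test. IME1, the master regulator that Rme1 represses, had 6.91, 5.85 and 5.20 in H2B R95A and 6.82, 6.19 and 6.41 in H2B WT (-0.49, standard error 0.51, adjusted p = 0.793). The groups overlapped. IME2, the kinase that Ime1 turns on, changed by -0.47 (standard error 0.34, adjusted p = 0.734), and NDT80, the activator of the middle sporulation genes, by -0.34 (standard error 0.31, adjusted p = 0.774). Of 13 meiosis entry genes tested, IME4 was the only one past the test, and the list median was -0.22. RME1 was counted in the haploid-specific list and not in this one.

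Genes for meiotic recombination and spore formation lay mostly below 0, and 0 of them passed the test with limma or with cyber-T. Among 25 recombination genes 22 were below 0, the median being -0.56 against -0.04 over all genes. Without overlap 6 were lower, where 4.22% of all tested probe sets were. At an unadjusted p under 0.05, 6 were lower. The mean signal of the 25 recombination genes was 5.191, 4.17 and 4.245 in H2B R95A and 5.027, 4.885 and 5.381 in H2B WT. H2B R95A replicate 1 lay above H2B WT replicates 1 and 2. MSH5, of the complex that stabilises crossover intermediates, had 6.13, 4.99 and 4.87 in H2B R95A and 6.69, 6.59 and 7.39 in H2B WT (-1.56, standard error 0.33, adjusted p = 0.120). It passed the test without H2B R95A replicate 1 (-1.96, adjusted p = 0.00895).

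NDJ1, which tethers telomeres in meiotic prophase, had 2.02, 2.11 and 1.71 in H2B R95A and 2.91, 4.62 and 3.38 in H2B WT (-1.69, standard error 0.41, adjusted p = 0.210). Its H2B R95A signals were near the bottom of the range. REC8, the meiotic cohesin, had 4.64, 3.33 and 4.01 in H2B R95A and 5.13, 4.74 and 5.46 in H2B WT (-1.12, standard error 0.31, adjusted p = 0.420), and passed the test without H2B R95A replicate 1 (-1.44, adjusted p = 0.0415). The groups did not overlap for either gene. Of 29 sporulation genes 26 were negative with a median of -0.33. Without overlap 3 were lower, where 4.22% of all tested probe sets were. They include SPO20, a t-SNARE of the spore membrane (-1.05, standard error 0.35), and DIT1, an enzyme of the dityrosine wall (-1.04, standard error 0.39). Without H2B WT replicate 3 the medians were -0.36 for recombination and -0.30 for sporulation, and without replicate 1 of both strains they were -0.94 and -0.58. The sporulation median was nearer to 0 without H2B R95A replicate 2 (-0.17) and after quantile normalization of S. cerevisiae probe sets alone (-0.09). In treated arrays the medians were -0.14 for recombination and -0.34 for sporulation.

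End joining and recombination repair genes other than NEJ1 had smaller differences. Of 14 tested, 0 passed with limma or cyber-T, 1 had an unadjusted p under 0.05 and the median was -0.16. YKU70, a subunit of the Ku complex that binds broken ends and telomeres, was the one without overlap, with 7.39, 7.24 and 7.30 in H2B R95A and 7.77, 7.83 and 8.33 in H2B WT (-0.67, standard error 0.28, adjusted p = 0.733). It had a difference of 0.03 in treated arrays. Over all tested probe sets 4.22% were lower without overlap in the untreated arrays.

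COS12 had the largest rise of all probe sets. It belongs to a family of membrane proteins, encoded mostly beside chromosome ends, that help to sort cargo into the vacuole, and in the RefSeq R64 annotation it is the outermost protein-coding gene on its arm of chromosome VII. Its signals were 6.41, 6.85 and 6.60 in H2B R95A and 3.83, 3.92 and 4.36 in H2B WT. The arrays of each strain lay close together and far from those of the other strain. COS12 rose by 2.59 (standard error 0.23, 6.01-fold, adjusted p = 0.000605 from limma). After spike-in centring its adjusted p was 0.0540.

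All 8 COS genes tested had positive changes, with a median of 0.31, and COS12 was the only one past the test. COS7 had 7.78, 7.47 and 7.48 in H2B R95A and 7.31, 7.09 and 7.43 in H2B WT (0.30, standard error 0.19, adjusted p = 0.733). COS6 had 8.13, 7.05 and 7.58 in H2B R95A and 8.03, 6.63 and 6.99 in H2B WT (0.37, standard error 0.50, adjusted p = 0.831). COS7 had groups that just missed each other, and COS6 did not. Several COS genes are near copies, and the COS7 probe set can read more than 1 transcript.

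Of 192 genes listed as the 6 nearest to each chromosome end, 126 were tested. Several YRF1, PAU and COS genes were among those that were not. Of the 126, COS12 was the only one past the test, and 36 changes were positive and 90 negative with a median of -0.14. The median was -0.07 without H2B WT replicate 3 and 0.01 without H2B R95A replicate 2. Without overlap 4 genes were higher and 6 lower, where 2.69% and 4.22% of all tested probe sets were. This set was defined after values had been seen. YGL262W, the neighbour of COS12, had a change of 0.89 with overlapping arrays (adjusted p = 0.733). YFR057W, a gene of unknown function next to an end of chromosome VI, had 2.37, 3.49 and 2.92 in H2B R95A and 1.38, 1.21 and 1.76 in H2B WT (1.48, standard error 0.36, adjusted p = 0.210). Its groups were separate, at signals near the bottom of the range, and it passed the test without H2B R95A replicate 1 (1.76, adjusted p = 0.0497).

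Silencing factors, which hold such regions down, did not pass the test. SIR2, the histone deacetylase of silent chromatin, had 6.78, 5.82 and 6.06 in H2B R95A and 7.25, 7.05 and 6.89 in H2B WT (-0.84, standard error 0.32, adjusted p = 0.733). DOT1, a methyltransferase of the histone H3 core, had 6.46, 6.67 and 6.63 in H2B R95A and 6.27, 6.27 and 5.73 in H2B WT (0.50, standard error 0.24, adjusted p = 0.733). These were the only members of the silencing list without overlap, where 4.22% of all tested probe sets were lower in this way and 2.69% higher. Of its 22 members 14 were positive, and the median was 0.07, or -0.11 after centring each array on its spike-in probe sets.

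The histone genes themselves differed little. HTB1, the H2B gene of the plasmid, had 12.24, 12.16 and 12.35 in H2B R95A and 12.05, 12.17 and 12.39 in H2B WT (0.04, standard error 0.17, adjusted p = 0.945). HTA1, its H2A partner, changed by 0.05 (standard error 0.18). The groups overlapped for both genes, and the sign of these differences turned with some settings. HTB2, which the parent strain lacks, had 5.63, 5.44 and 5.66 in H2B R95A and 5.80, 5.77 and 5.90 in H2B WT (-0.25, standard error 0.16). These signals lay above 1.37, below which 95% of the S. pombe probe sets had their mean, so they do not show the gene as absent. HTB1 and HTB2 are near copies, and which transcript the HTB2 probe set reads was not tested.

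HHT1, an H3 gene, had 10.58, 10.44 and 10.67 in H2B R95A and 10.37, 11.00 and 11.37 in H2B WT (-0.35, standard error 0.33). The marker gene HIS3 had 11.92, 11.65 and 11.23 in H2B R95A and 11.42, 11.03 and 10.11 in H2B WT (0.75, standard error 0.39, adjusted p = 0.733). Its groups overlapped. Across 57 genes of silencing, of H2B ubiquitination with H3 lysine 4 methylation, and of histone chaperones, 0 passed the test with limma or cyber-T, 1 was lower at an unadjusted p under 0.05 and the median was 0.04.

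ICS2 and THI22 fell, and each has a neighbour whose H2B R95A arrays also lay below its H2B WT arrays. ICS2 had 5.67, 5.66 and 6.19 in H2B R95A and 8.06, 8.65 and 8.17 in H2B WT. The groups lay well apart. ICS2 fell by 2.45 (standard error 0.31, 5.48-fold lower, adjusted p = 0.00344 from limma). AMN1, next to it on chromosome II in the RefSeq R64 order, antagonises exit from mitosis and is a known determinant of daughter cell separation. It had 7.09, 8.04 and 8.33 in H2B R95A and 8.61, 9.64 and 9.16 in H2B WT (-1.32, standard error 0.46, adjusted p = 0.733), without overlap. The genes on the other side of ICS2, SLI15 and CNS1, had -0.45 and 0.72.

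THI22 encodes a protein like the phosphomethylpyrimidine kinases of thiamine synthesis. It had 5.10, 5.53 and 5.69 in H2B R95A and 6.42, 7.19 and 7.04 in H2B WT. The groups did not overlap. THI22 fell by 1.45 (standard error 0.24, 2.72-fold lower, adjusted p = 0.0208 from limma). Its neighbour on chromosome XVI is AXL1, the protease gene of a-factor maturation, a haploid-specific mating gene that fell by 2.10 (adjusted p = 0.00892 from limma). The genes on the other side, CLB5 and CLB2, had 0.18 and 0.34. The call of THI22 ended with cyber-T (adjusted p = 0.0559), when only the 6 untreated arrays were fitted (adjusted p = 0.315), after spike-in centring (adjusted p = 1.00), and without any one of H2B R95A replicates 2 and 3 and H2B WT replicates 2 and 3 (adjusted p of 0.0547 to 0.139).

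Thiamine and vitamin B6 genes as a list had 1 member past the test, THI22, among 18 tested, with a median of -0.28. Of the 18, 4 were lower without overlap, where 4.22% of all tested probe sets were. THI13, a thiamine pyrimidine synthase, had 6.65, 6.20 and 6.91 in H2B R95A and 7.46, 7.32 and 7.91 in H2B WT (-0.98, standard error 0.23, adjusted p = 0.194). SNO3, of vitamin B6 synthesis, had 6.84, 5.64 and 5.67 in H2B R95A and 7.86, 7.03 and 7.24 in H2B WT (-1.33, standard error 0.43, adjusted p = 0.733). Both were lower without overlap, and both probe sets can read near copies of the gene. THI80, thiamine pyrophosphokinase, had a positive change, with 4.84, 5.97 and 6.44 in H2B R95A and 4.94, 4.96 and 4.79 in H2B WT (0.85, standard error 0.35, adjusted p = 0.733). It passed without H2B R95A replicate 1 (1.31, adjusted p = 0.0375).

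YCL021W-A and the open reading frames of Ty retrotransposons, which copy themselves through RNA, had H2B R95A arrays below all H2B WT arrays. YCL021W-A, a gene of unknown function on chromosome III, had 3.60, 3.87 and 3.85 in H2B R95A and 5.64, 6.50 and 6.76 in H2B WT. The groups lay far apart. It fell by 2.53 (standard error 0.39, 5.78-fold lower, adjusted p = 0.0123 from limma). The call ended when only the 6 untreated arrays were fitted (adjusted p = 0.0504), after quantile normalization of S. cerevisiae probe sets alone (adjusted p = 0.0684), and without any one of H2B R95A replicates 2 and 3 and H2B WT replicates 2 and 3 (adjusted p of 0.0621 to 0.0768). Its neighbours KCC4 and AGP1 had -0.22 and 0.14, and the genes on the other side were not analysed here.

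YAR009C, a Ty1 coding region on chromosome I, had 7.60, 7.61 and 6.85 in H2B R95A and 9.02, 8.73 and 9.27 in H2B WT. The groups did not overlap. YAR009C fell by 1.65 (standard error 0.28, 3.14-fold lower, adjusted p = 0.0282 from limma). The call held with cyber-T and ended when only the 6 untreated arrays were fitted (adjusted p = 0.196), after spike-in centring (adjusted p = 0.188), without replicate 1 of both strains (adjusted p = 0.0860) and without any single array other than H2B R95A replicate 1 (adjusted p of 0.0543 to 0.178).

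The other 5 Ty reading frames tested did not pass. YGR109W-A had 6.29, 4.94 and 4.73 in H2B R95A and 7.44, 7.48 and 7.38 in H2B WT (-2.11, standard error 0.44, adjusted p = 0.114). YGR109W-B, of the same element, had 6.72, 6.32 and 5.52 in H2B R95A and 7.40, 8.27 and 8.48 in H2B WT (-1.86, standard error 0.39, adjusted p = 0.111). YDR261C-D had 7.63, 7.49 and 6.90 in H2B R95A and 9.03, 8.40 and 8.98 in H2B WT (-1.47, standard error 0.27, adjusted p = 0.0517). In each the 3 H2B R95A arrays were lower than all H2B WT arrays.

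YAR010C (-1.16) and YIL082W-A (-1.26) were also without overlap, so that all 6 reading frames were lower in this sense, with a median of -1.56. They were listed together after their values had been seen, and all but YGR109W-B were read by probe sets that can match several copies, so they are not separate measurements. With cyber-T 3 of the 6 passed the test. Without H2B R95A replicate 1, YGR109W-A, YGR109W-B and YDR261C-D each passed (adjusted p of 0.0154, 0.0411 and 0.0375).

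HPF1, a cell wall mannoprotein gene, had the largest positive change that did not pass the test among genes without overlap. It had 9.82, 11.13 and 11.06 in H2B R95A and 8.42, 9.05 and 8.76 in H2B WT (1.93, standard error 0.42, 3.80-fold, adjusted p = 0.126). The groups did not overlap, and it passed without H2B R95A replicate 1 (2.35, adjusted p = 0.0218). Of 29 cell wall mannoprotein genes it was the only one higher without overlap, 2 were lower, and the list median was -0.10. Over all tested probe sets 2.69% were higher without overlap and 4.22% lower.

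Among single genes of other functions, YLR031W, of unknown function, had 4.91, 4.13 and 4.66 in H2B R95A and 6.44, 5.86 and 7.31 in H2B WT (-1.97, standard error 0.39, adjusted p = 0.0876). VBA2, a permease for basic amino acids of the vacuole, had 5.25, 4.23 and 4.53 in H2B R95A and 6.15, 5.82 and 6.25 in H2B WT (-1.40, standard error 0.30, adjusted p = 0.116). TRM11, a subunit of a tRNA guanosine methyltransferase, had 4.44, 5.81 and 4.88 in H2B R95A and 3.88, 3.34 and 3.31 in H2B WT (1.53, standard error 0.34, adjusted p = 0.136). None of these groups overlapped. YLR031W passed with cyber-T (adjusted p = 0.0185), and VBA2 and TRM11 passed without H2B R95A replicate 1 (adjusted p of 0.0218 and 0.0305).

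ICS2, which the pheromone-induced list holds, was left out of the following ranking. Among the other probe sets without overlap outside the mating lists, the 15 largest positive changes lay between 1.07 and 2.59 and the 15 largest negative ones between -3.11 and -1.38. Of the positive 2 and of the negative 5 passed the test. The ribosome biogenesis lists held 4 of the 15 positive ones. UTP23, of the small-subunit processome, had 6.28, 6.69 and 5.95 in H2B R95A and 5.88, 4.89 and 4.36 in H2B WT (1.26, standard error 0.40, adjusted p = 0.696). PUF6, of large-subunit assembly, had 6.67, 7.83 and 7.03 in H2B R95A and 6.47, 6.49 and 5.33 in H2B WT (1.08, standard error 0.39, adjusted p = 0.733). ARB1, an ATPase of ribosome biogenesis, had 8.76, 9.40 and 9.22 in H2B R95A and 8.40, 7.93 and 7.84 in H2B WT (1.07, standard error 0.28, adjusted p = 0.302). In all 3 genes replicate 1 of H2B R95A stood close above replicate 1 of H2B WT.

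**Figure D3:**
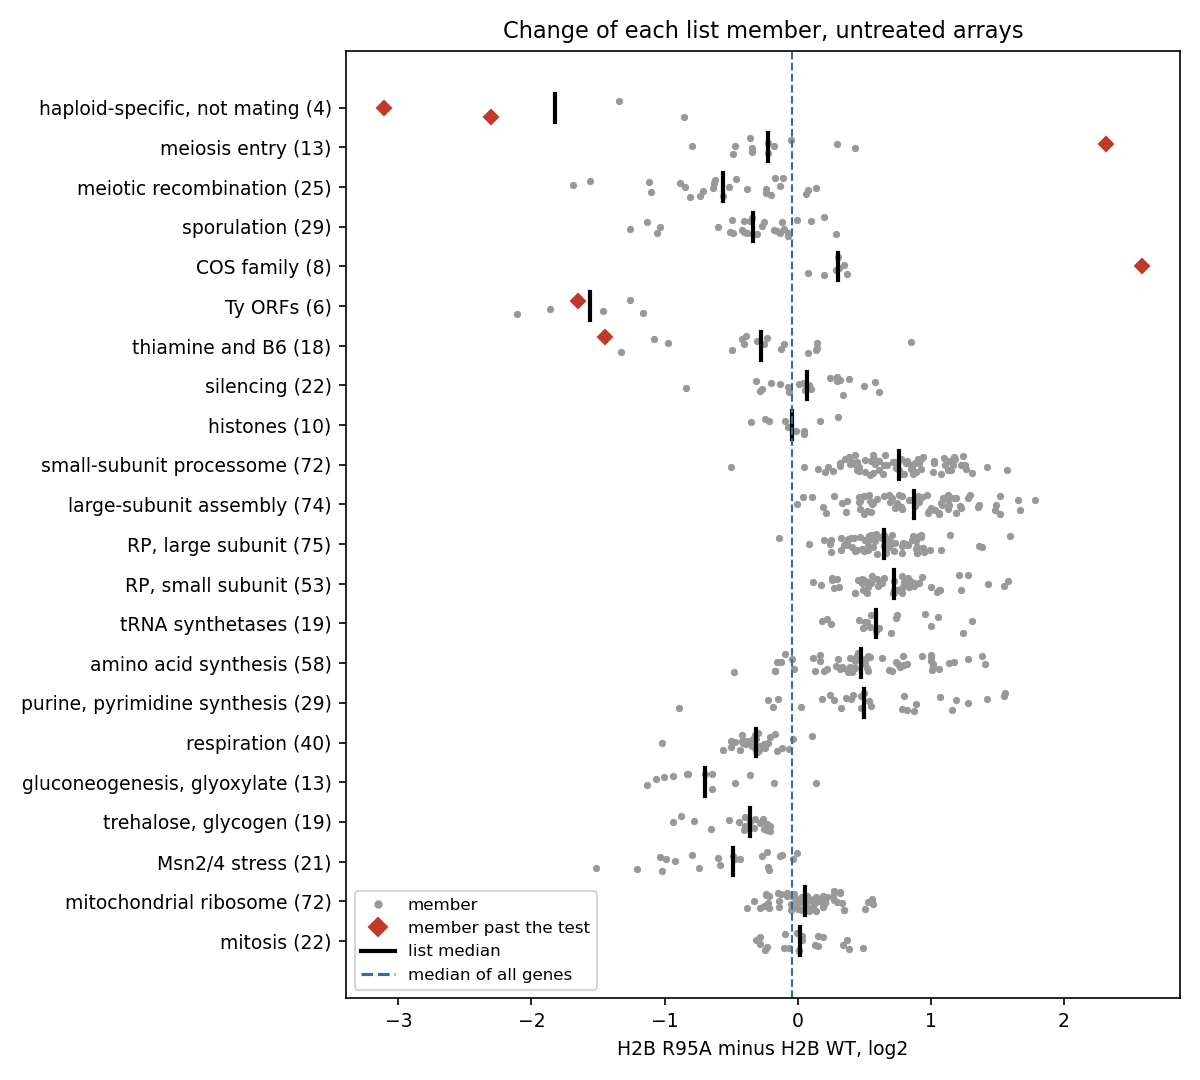
Change of each member (H2B R95A minus H2B WT, log2) in 22 gene lists, untreated arrays, with the number of members tested in brackets. Points are genes, red diamonds genes past the test, black bars list medians, and the dashed line the median over all genes, -0.04. The small-subunit processome, large-subunit assembly and cytosolic ribosomal protein lists sit to the right with medians between 0.65 and 0.87 and hold 0 genes past the test.

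Most ribosome biogenesis factors and ribosomal protein genes had positive changes, and none of them passed the test. Of 162 ribosome biogenesis factors, which process ribosomal RNA and assemble the subunits, 156 were positive with a median of 0.78, and 0 passed with limma or cyber-T. At an unadjusted p under 0.05, 16 were higher, and 16 (9.88%) were higher without overlap, where 2.69% of all probe sets were. Of 128 ribosomal protein genes 127 were positive with a median of 0.66, 0 passed with either tool, 7 were higher at an unadjusted p under 0.05, and 5 (3.91%) were higher without overlap. Among the factors, the snoRNA-protein genes were positive in 12 of 16 with a median of 0.33. Genes of RNA polymerases I and III, which make ribosomal RNA and tRNA, were positive in 25 of 37 with a median of 0.32.

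The size of the differences depended on single arrays, and 2 arrays lay at the extremes. Averaged over the ribosome biogenesis factors, the signal was 6.88, 7.80 and 7.27 in H2B R95A replicates 1, 2 and 3, and 6.92, 6.99 and 5.73 in H2B WT. H2B R95A replicate 2 was the highest array for 126 of the 162 genes, and H2B WT replicate 3 the lowest for 141. For the ribosomal protein genes these arrays were highest and lowest for 111 and 111 of 128. The replicate 1 arrays of both strains were nearly level.

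NSR1, the yeast nucleolin, had 6.96, 9.40 and 8.74 in H2B R95A and 7.11, 7.86 and 5.39 in H2B WT (1.58, standard error 0.64, adjusted p = 0.733). NIP7, of large-subunit assembly, had 6.64, 8.79 and 7.94 in H2B R95A and 6.63, 7.28 and 4.48 in H2B WT (1.66, standard error 0.71, adjusted p = 0.733). DBP2, an RNA helicase of ribosome biogenesis and mRNA decay, had the largest value of its list, 1.79, with a standard error of 1.05. The groups overlapped for all 3. Of the ribosomal proteins, RPS9B had 8.48, 10.98 and 10.27 in H2B R95A and 8.86, 9.32 and 6.81 in H2B WT (1.58, standard error 0.72), and RPL22A changed by 1.59 (standard error 0.84).

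Without H2B WT replicate 3 the medians were 0.31 for the small-subunit processome, against 0.76 with all arrays, and 0.40 for large-subunit assembly, against 0.87. Without it the ribosomal protein medians were 0.28 for the large and 0.36 for the small subunit, against 0.65 and 0.72 with all arrays. Without replicate 1 of both strains the 4 medians were 1.16, 1.29, 1.08 and 1.09 in the same order. Without H2B R95A replicate 1 they were 0.96, 1.12, 1.01 and 1.07, and without H2B R95A replicate 2 0.51, 0.61, 0.365 and 0.44. Without H2B WT replicate 2 they were 0.97, 1.10, 0.97 and 0.95. In treated arrays they were 0.13, 0.10, -0.20 and -0.15.

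**Figure D4:**
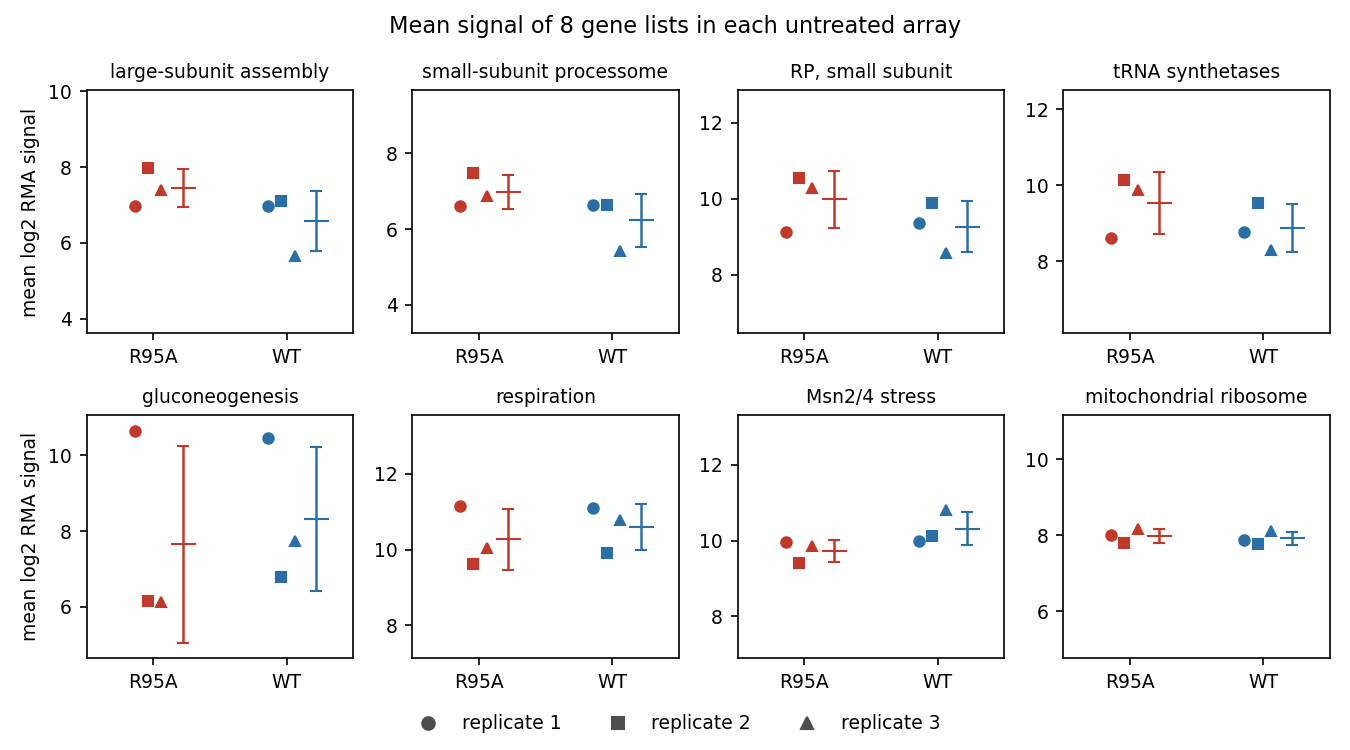
Mean log2 RMA signal of 8 gene lists in each untreated array. Red is H2B R95A and blue H2B WT, symbols mark the replicate number, the dash with bars is the mean with its SD (n = 3 arrays), and every panel spans the same range of signal. H2B WT replicate 3 is the lowest array in the large-subunit assembly, small-subunit processome, small-subunit ribosomal protein and tRNA synthetase panels. The replicate 1 arrays lie far above the others for gluconeogenesis, at 10.64 in H2B R95A and 10.44 in H2B WT.

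Translation and biosynthesis showed the same ordering of arrays. Across 90 genes of tRNA modification, tRNA charging and translation factors, 83 were positive with a median of 0.50, and 0 passed with limma or cyber-T. At an unadjusted p under 0.05, 4 were higher, and 6 (6.67%) were higher without overlap, where 2.69% of all tested probe sets were. All 19 tRNA synthetase genes were positive, with a median of 0.59, which was 1.04 without H2B R95A replicate 1, 0.31 without H2B R95A replicate 2, 0.36 without H2B WT replicate 3 and 0.06 in treated arrays. Without H2B R95A replicate 2 the median was 0.28 for tRNA modification, against 0.45 with all arrays, and 0.24 for translation factors, against 0.42. The mean signal of the tRNA synthetase genes was 8.61, 10.13 and 9.87 in H2B R95A and 8.77, 9.54 and 8.30 in H2B WT. Replicate 1 of H2B R95A lay below replicate 1 of H2B WT for these genes, and the other H2B R95A arrays lay above all H2B WT arrays. ELP3, the catalytic subunit of Elongator, had 6.93, 8.06 and 7.50 in H2B R95A and 7.06, 7.06 and 4.68 in H2B WT (1.23, standard error 0.65).

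Of 87 genes of amino acid, purine and pyrimidine synthesis 75 were positive with a median of 0.50, and 0 passed with limma or cyber-T. At an unadjusted p under 0.05, 11 were higher, and 5 (5.75%) were higher without overlap, where 2.69% of all tested probe sets were. APT1, adenine phosphoribosyltransferase, had 7.33, 8.36 and 8.26 in H2B R95A and 7.25, 7.00 and 6.13 in H2B WT (1.19, standard error 0.44, adjusted p = 0.733). URA7, CTP synthase, had 6.61, 9.47 and 8.13 in H2B R95A and 6.52, 7.84 and 5.17 in H2B WT (1.56, standard error 0.70, adjusted p = 0.733). APT1 did not overlap between the groups, and URA7 did. ILV1, threonine deaminase, and ARO4, of the aromatic pathway, had 1.41 (standard error 0.76) and 1.39 (standard error 0.72).

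IMD2, IMP dehydrogenase of GTP synthesis, had 7.83, 9.26 and 8.99 in H2B R95A and 6.23, 8.10 and 7.47 in H2B WT (1.43, standard error 0.66, adjusted p = 0.733). Its probe set can also read near copies. Its difference in treated arrays was 1.32. Without H2B WT replicate 3 the medians were 0.33 for amino acid synthesis and 0.34 for purine and pyrimidine synthesis, and in treated arrays 0.02 and -0.03.

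Genes for carbon sources other than glucose had mostly negative changes. Of 47 genes of gluconeogenesis and the glyoxylate cycle, of use of nonfermentable carbon and of fatty acid oxidation, 43 were negative with a median of -0.51. Of these 0 passed with limma or cyber-T, 1 was lower at an unadjusted p under 0.05 and 0 were without overlap. The mean signal of the 13 gluconeogenesis and glyoxylate genes was 10.64, 6.17 and 6.14 in H2B R95A and 10.44, 6.78 and 7.73 in H2B WT. The replicate 1 arrays of both strains were high and level, and the other arrays low, which leaves H2B WT replicate 3 as the array between them. The median of these 13 genes was -0.70 with all arrays and -2.37 without H2B R95A replicate 1, and it was above 0 without H2B WT replicate 1 (0.44) and in 2 other settings that left out 1 array.

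Respiration and the citric acid cycle had 50 of 53 genes negative with a median of -0.30, 0 past the test with limma or cyber-T and 0 with an unadjusted p under 0.05. The sign of these medians turned with 1 array left out. The respiration median was -0.31 with all arrays and 0.01 without H2B R95A replicate 2. The citric acid cycle median was -0.22 with all arrays, 0.09 without H2B R95A replicate 2 and 0.07 without H2B WT replicate 1. In treated arrays they were 0.05 and 0.09. Among hexose transporters, HXT13 had 3.81, 2.80 and 2.49 in H2B R95A and 4.38, 3.83 and 5.04 in H2B WT (-1.38, standard error 0.46, adjusted p = 0.733), without overlap. HXT3, a low-affinity transporter induced by glucose, had 7.12, 10.63 and 9.97 in H2B R95A and 6.73, 9.22 and 7.95 in H2B WT (1.27, standard error 0.92, adjusted p = 0.736). For HXT3 the replicate 1 arrays of both strains were the lowest.

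Stress genes also had mostly negative changes. Of 92 genes of heat shock, oxidative stress, the Msn2/4 response and trehalose and glycogen, 84 were negative with a median of -0.34, and 0 passed with limma or cyber-T. At an unadjusted p under 0.05, 5 were lower, and 7 (7.61%) were lower without overlap, where 4.22% of all tested probe sets were. XBP1, a repressor induced by stress and starvation, had 7.93, 6.67 and 6.88 in H2B R95A and 8.22, 7.85 and 8.51 in H2B WT (-1.03, standard error 0.30, adjusted p = 0.534). OYE3, an NADPH oxidoreductase, had 7.64, 5.58 and 5.68 in H2B R95A and 7.35, 6.87 and 8.73 in H2B WT (-1.35, standard error 0.73). The groups overlapped for both, and H2B WT replicate 3 was the highest array in each. XBP1 passed without H2B R95A replicate 1 (-1.42, adjusted p = 0.0188). The aryl-alcohol dehydrogenase gene AAD4 had 6.20, 4.61 and 4.50 in H2B R95A and 6.61, 6.07 and 6.87 in H2B WT (-1.41, standard error 0.43, adjusted p = 0.627; -1.96 and adjusted p = 0.0250 without H2B R95A replicate 1), with a value of -0.51 at a second probe set that can read near copies.

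The median of the Msn2/4 list was -0.48 with all arrays, -0.21 without H2B WT replicate 3 and -0.04 in treated arrays. For trehalose and glycogen genes, all 19 of which were negative, it was -0.35, -0.26 and -0.03. The mean signal of the Msn2/4 list was 9.95, 9.40 and 9.84 in H2B R95A and 9.98, 10.13 and 10.80 in H2B WT.

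Many functions had medians close to that of all genes. Outside the mating lists 33 of 58 lists had a median between -0.3 and 0.3, 12 lay above and 13 below, and 6 lists held a gene past the test. Of 72 mitochondrial ribosome genes 45 were positive with a median of 0.06, the proteasome list of 36 had -0.10 and the list of 21 TOR pathway components -0.03. Of 78 cell cycle genes, from Start to mitosis and daughter cell separation, 55 were positive with a median of 0.14, 0 passed with limma or cyber-T, and 1 was lower at an unadjusted p under 0.05. S phase genes were positive in 27 of 28 with a median of 0.23, which was 0.07 without H2B WT replicate 3. A median near 0 with 3 arrays a strain does not show that the strains act alike.

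The same strain difference was also measured with rapamycin, in other arrays of the same fit. There 2 probe sets were higher (0.0364%) and 17 lower (0.309%) past the test, all 19 among the 22 untreated calls, and 6 of the 8 outside the mating lists did so. COS12 had 6.69, 6.64 and 6.27 in treated H2B R95A and 3.72, 3.92 and 4.30 in treated H2B WT (2.56, adjusted p = 0.000684 from limma). IME4 had 6.29, 6.85 and 7.16 in treated H2B R95A and 3.52, 4.08 and 4.44 in treated H2B WT (2.75, adjusted p = 0.00361 from limma). NEJ1 fell by 3.14 and RME1 by 1.85 there. These 4 genes differed between the strains without overlap within either condition, and so did others, among them ICS2, YCL021W-A, THI22, HPF1 and YFR057W.

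ICS2 and YCL021W-A also passed the test with rapamycin, with falls of 1.85 and 2.14. THI22 (-1.20, adjusted p = 0.0980) and YAR009C (-0.41) did not. YAR009C had 8.04, 8.12 and 8.53 in treated H2B R95A and 8.20, 9.01 and 8.73 in treated H2B WT, where the groups overlapped. TRM11 had a treated change of 0.01, with 3.52, 3.03 and 3.30 in H2B R95A and 3.63, 3.04 and 3.16 in H2B WT. HPF1 (2.06) and YFR057W (1.59) did not pass there.

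The difference between the untreated and treated strain effects was tested itself over 5498 probe sets. With limma 0 passed, and 5 were positive and 3 negative at an unadjusted p under 0.05. These counts are smaller than this p gives where nothing differs, so they single out no gene. TRM11 (1.53, unadjusted p = 0.00813 from limma) and YAR009C (-1.24, unadjusted p = 0.0101 from limma) were among the probe sets under 0.05, both with an adjusted p of 1.00.

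**Figure D5:**
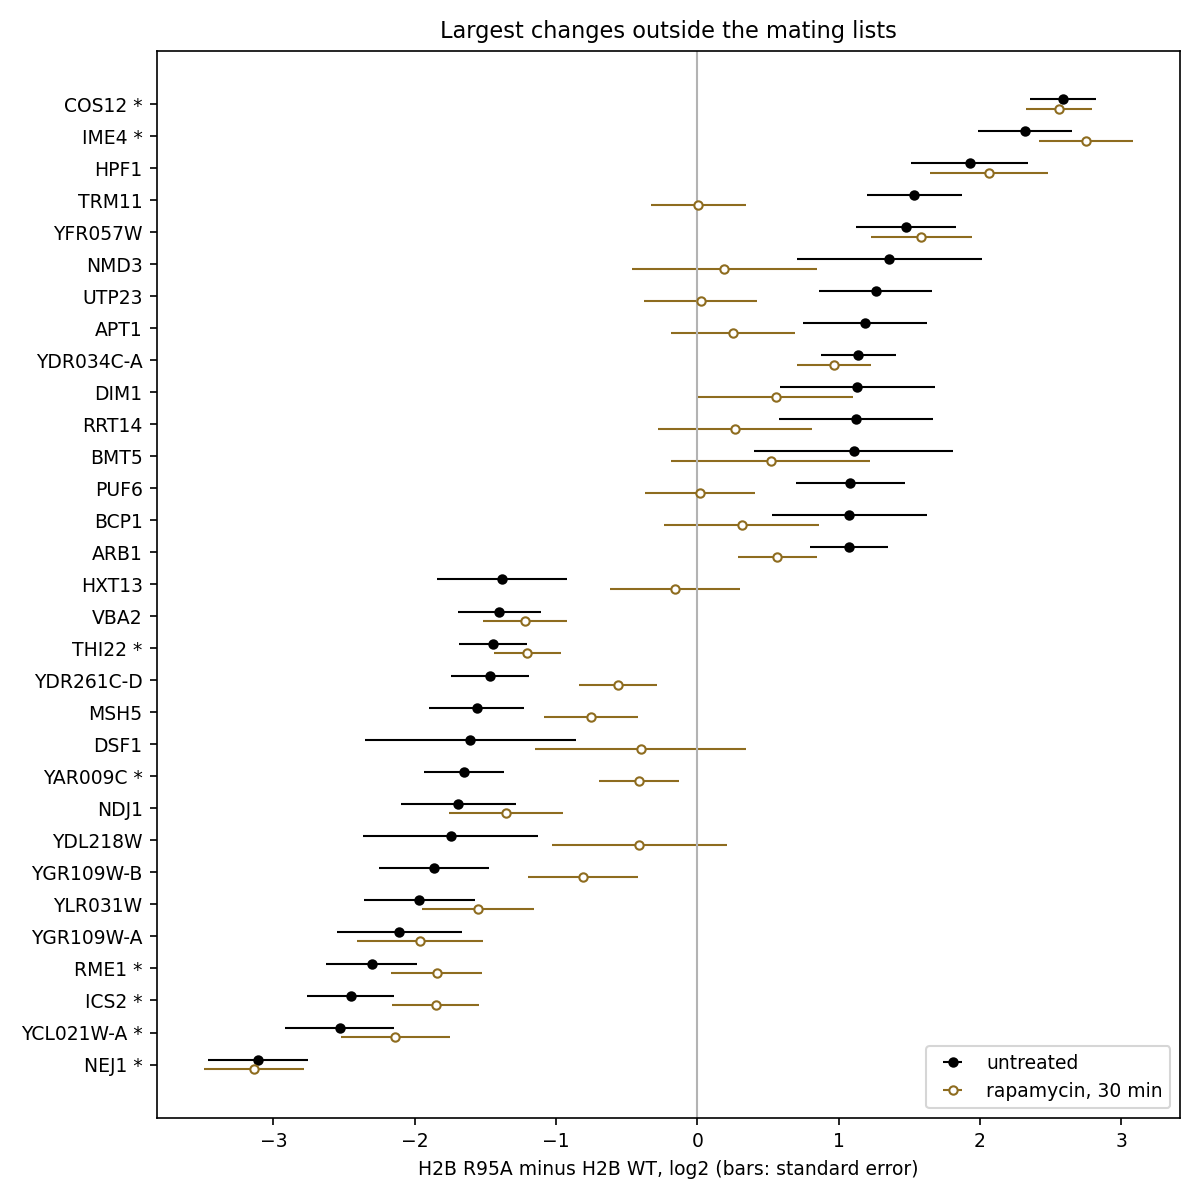
Strain difference (H2B R95A minus H2B WT, log2, with its standard error) of the 15 largest positive and 15 largest negative changes without overlap outside the mating lists, and of ICS2. Filled points are untreated and open points rapamycin-treated cells, and asterisks mark genes past the test untreated. COS12, IME4, NEJ1 and RME1, among others, keep their differences with rapamycin, while TRM11 moves to 0.01 and YAR009C to -0.41.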

How the data were processed

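Values were those the authors deposited: log2 signals of RMA (background correction, quantile normalization, probe set summary, run by the authors in FlexArray) for 12 arrays. All columns were mapped to samples and 0 were left out. Scans were not used. Of 10928 probe sets, 213 controls, 3470 with no gene listed and 1747 annotated otherwise were left out of the test and its adjustment. For 47 genes with several probe sets, lists used 1, preferring probe sets made for a single transcript.

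R 4.3.3 with limma 3.58.1 fitted a mean for each of 4 groups with a variance trend, and Benjamini-Hochberg adjustment ran over 5498 probe sets. The methods name cyber-T at 2-fold and p of 0.01, which was run as an alternative (window 101, confidence 10). Its degrees of freedom, which the methods do not give, were counted here with the weight of the prior included and were not varied, which bears on every cyber-T count. On simulated arrays with the residual spread of these arrays, cyber-T made more false calls than its nominal rate. Its passes above are to be read with that limit.

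The members and lists were chosen with earlier results of these data known, and the Ty and chromosome-end lists after values were seen. Lists are described by counts and medians only. Genes named were those past the test, the 15 largest positive and 15 largest negative changes without overlap outside the mating lists (ICS2 taken as in them), up to 4 members of each of the lists with the largest changes, and histone and marker genes. Others (YGL262W, SLI15, CNS1, CLB5, CLB2, KCC4 and AGP1 as neighbours, and NDT80, COS7, YIL082W-A, YAR010C and THI80) were chosen after their values were seen. Neighbours and chromosomes are from RefSeq R64.

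The 18 alternatives were cyber-T, no variance trend, array weights, 3 scalings, a low signal filter, a fit of the 6 untreated arrays, replicate blocks, an adjusted p under 0.01, and leaving out each untreated array or replicate 1 of both strains. The count outside the mating lists was followed through them after seeing the data. Spike-in centring (12 poly-A probe sets) moved the median of all changes by -0.18 and the other scalings by 0.02. Figures used matplotlib.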

Additional observations from a re-analysis of the deposited data

Results flagged for a closer look

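Among the 3470 probe sets with no gene listed, fitted apart from the genes, 2 were higher past the test in untreated H2B R95A and 0 were lower, a signal in data that no comparison above uses. Probe set 1777712_at had 4.40, 4.03 and 4.14 in H2B R95A and 1.936, 1.597 and 1.730 in H2B WT, a change of 2.43 (adjusted p = 1.43e-07 from limma over those probe sets). Its treated values were 4.71, 5.02 and 5.22 in H2B R95A and 1.59, 1.19 and 1.53 in H2B WT. Probe set 1773061_s_at had 8.89, 10.59 and 10.41 in H2B R95A and 7.33, 8.21 and 7.74 in H2B WT, a change of 2.20 (adjusted p = 0.0333 from limma). Both were higher in every H2B R95A array, and what they read was not analysed here. With 3 arrays a strain no array was tested as an outlier, and 0 genes passed the test of a difference between the untreated and treated strain effects.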

How the results depend on the processing

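Counts of calls depended on the setting. Past the test 2 were higher and 20 lower, against 1 and 7 with the 6 untreated arrays alone, 6 and 41 with array weights, and 0 and 20 with spike-in centring. Leaving out 1 array gave 1 to 12 higher and 11 to 47 lower. Outside the mating lists 8 passed, against 2 with the 6 untreated arrays alone, 29 with array weights, 5 at an adjusted p under 0.01 and 4 to 44 with 1 array left out. At the 2-fold threshold the 9 higher and 44 lower became 55 and 104 with array weights and 64 and 127 without replicate 1 of both strains. With 1 array left out they were 6 to 95 and 30 to 166. Cyber-T gave 23 higher and spike-in centring 3 at that threshold.

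With the replicate number as a block on all 12 arrays, 4 were higher past the test, 17 passed outside the mating lists and 15 were higher at the 2-fold threshold. Of the genes described, RDH54, AMN1, HPF1, IMD2, SNO3, THI13, VBA2 and YLR031W passed only with that block or with other settings (adjusted p of 0.00143 for HPF1 to 0.0193 for VBA2 with the block). With the block on the 6 untreated arrays 0 passed in either direction and 0 outside the mating lists (smallest adjusted p = 0.0694 from limma), while 187 were higher and 215 lower at an unadjusted p under 0.05. The numbers did not all pair: deviations of same-numbered arrays from their group means correlated with r of 0.57, 0.83 and 0.06 over 5498 probe sets, which are not independent.

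The calls that single settings ended are given with their genes above. Spike-in centring moved all changes by -0.18. HTA1 turned to -0.012 with array weights, -0.13 with spike-in centring and -0.071 without replicate 1 of both strains, and HTB1 to -0.14 and -0.027 with the last 2. With 1 array left out HTA1 lay between -0.034 and 0.12 and HTB1 between -0.032 and 0.138. The cause was not tested. The number of arrays and their spread limit what can be detected.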
